A study of Caenorhabditis elegans with 12 samples.

Results

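The heterochronic genes of *C. elegans*, which set the order and timing of larval events, were followed through the 4 groups of a total RNA sequencing study of the response to heat shock (HS). The 8 protein-coding members *lin-14*, *lin-28*, *hbl-1*, *lin-46*, *daf-12*, *lin-41*, *lin-29* and *lin-42* were taken by name from the 46904 genes of the deposited count tables, of which 19901 are protein-coding. All 8 had enough counts to be tested in every comparison. The study asked how a microRNA, miR-85, shapes the response to heat, and compared *miR-85(n4117)* animals, which carry a deletion of the *mir-85* gene, with WT (Bristol N2) animals. In the *miR-85(n4117)* HS and WT HS groups, worms developed for 44 hrs at 20°C and were then held for 3 hrs at 35°C. The *miR-85(n4117)* CTL and WT CTL groups stayed at 20°C for 47 hrs. Whole L4 worms, at the last larval stage, were collected directly afterwards, and each group had 3 libraries from independent biological replicates.

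Heterochronic genes act in a cascade in which regulators of early larval fates are switched off step by step by microRNAs, so that each larval stage gets its own pattern of skin cell divisions. The microRNA lin-4 represses *lin-14* and *lin-28*, the let-7 relatives miR-48, miR-84 and miR-241 repress *hbl-1*, and let-7 itself represses *lin-41* late in larval life. The last step is LIN-29, a transcription factor that makes the skin stop dividing and switch to the adult cuticle, while LIN-42, a relative of the circadian protein PERIOD, rises and falls with every molt. The L4 stage that was sampled lies just before this larval-to-adult switch. In whole worms, fewer cells that express a gene and less RNA per cell cannot be told apart.

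The *mir-85* gene had 0 counts in all 6 *miR-85(n4117)* libraries, against 2 to 9 counts in WT HS and 0 to 5 in WT CTL. The n4117 deletion also disrupts part of *F49E12.8*, at 0.119 to 0.415 CPM in *miR-85(n4117)* HS, 0 to 0.0541 CPM in *miR-85(n4117)* CTL, 3.02 to 3.72 CPM in WT HS and 4.65 to 6.20 CPM in WT CTL (CPM, the count scaled to a common library size after TMM normalization). As a check of the heat treatment, *hsp-70*, a heat-inducible chaperone gene, was at 4154 to 5499 CPM in *miR-85(n4117)* HS against 11.3 to 57.1 CPM in *miR-85(n4117)* CTL, and at 4139 to 5938 CPM in WT HS against 2.46 to 8.06 CPM in WT CTL. Libraries held 23871531 to 38586076 counts. Ribosomal RNA genes took 65.5% of the counts of WT CTL replicate 3 and 13.7% to 32.9% in the other libraries. Sequencing lane 8 carried WT replicates 2 and 3 of both temperatures and lane 3 the 8 remaining libraries, so that only WT replicate 1 shared a lane with the mutant. The HS libraries numbered 2 of both strains stood apart. Genes that cycle with the molt summed to 128 CPM in *miR-85(n4117)* HS replicate 2 and 162 CPM in WT HS replicate 2, against 427 to 786 CPM in the other HS libraries, and the adult yolk genes *vit-1* to *vit-6* summed to 4152 and 5837 CPM, against 150.1 to 2500.0 CPM. Which members passed upon HS is therefore given with and without these libraries. The same holds for the log2 fold changes upon HS of *hbl-1*, *lin-46*, *lin-41*, *lin-29* and *lin-42*. Strain differences after HS and the responses of other genes are not given without both. Among the differences between the strains in the response to HS, only that of *daf-12* is.

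Upon HS, *lin-14* rose 1.37-fold in *miR-85(n4117)* animals, while the late-acting *lin-29* and *lin-42* and the earlier *hbl-1* fell in WT animals, each by more than 2-fold. Between the strains no member passed edgeR's quasi-likelihood test after HS (0.0190% of all genes tested did) or in CTL animals (0.0521% did), and the response to HS differed between the strains in no member after adjustment. The test threshold was an adjusted p of 0.05, adjusted over all genes tested. The counts behind these values ran from 8 for *lin-46* in WT CTL replicate 3 to 1281 for *lin-42* in WT CTL replicate 1.

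Counted together, 0 of the 8 members fell and 1 rose in *miR-85(n4117)* upon HS, where 5.88% of the 16585 genes tested fell and 9.35% rose. In WT 3 of 8 fell and 0 rose, where 9.29% of genes fell and 12.9% rose. Requiring a 2-fold change in a protein-coding gene with a mean count over 10 kept *hbl-1*, *lin-29* and *lin-42*. Under these conditions 802 of the 14716 protein-coding genes with such a mean fell in WT, which is 4.84% of all 16585 genes tested. By edgeR, unadjusted p-values under 0.05 were found for 2 members above and 1 below 0 in the mutant, and for 3 below and 0 above 0 in WT. DESeq2 passed 1 member higher and 0 lower in the mutant, and 3 lower and 0 higher in WT. Groups without overlap were found for 2 members higher (*lin-14*, *daf-12*) and 1 lower (*lin-29*) in the mutant, where 21.0% and 17.6% of genes did so, and for 1 higher (*lin-41*) and 3 lower (*hbl-1*, *lin-29*, *lin-42*) in WT, where 22.0% and 18.3% of genes did so. Without the HS libraries numbered 2, *lin-14* still passed in the mutant and *hbl-1*, *lin-29* and *lin-42* in WT, and no other member did. The median log2 fold change of the members was 0.069 in the mutant and −0.17 in WT, against 0.051 and 0.043 over all genes tested.

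**Figure D1:**
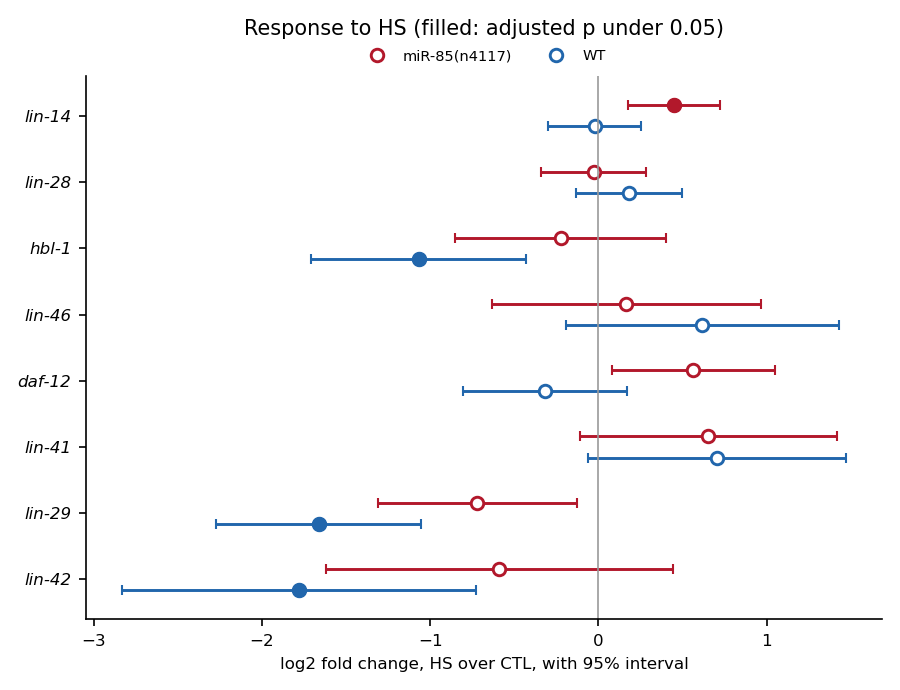
Log2 fold change upon HS (HS over CTL, horizontal axis) of each heterochronic gene in *miR-85(n4117)* (red) and WT (blue), with 95% intervals from edgeR. Filled points have an adjusted p under 0.05, which holds for *lin-14* in the mutant and for *hbl-1*, *lin-29* and *lin-42* in WT.

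**Figure D2:**
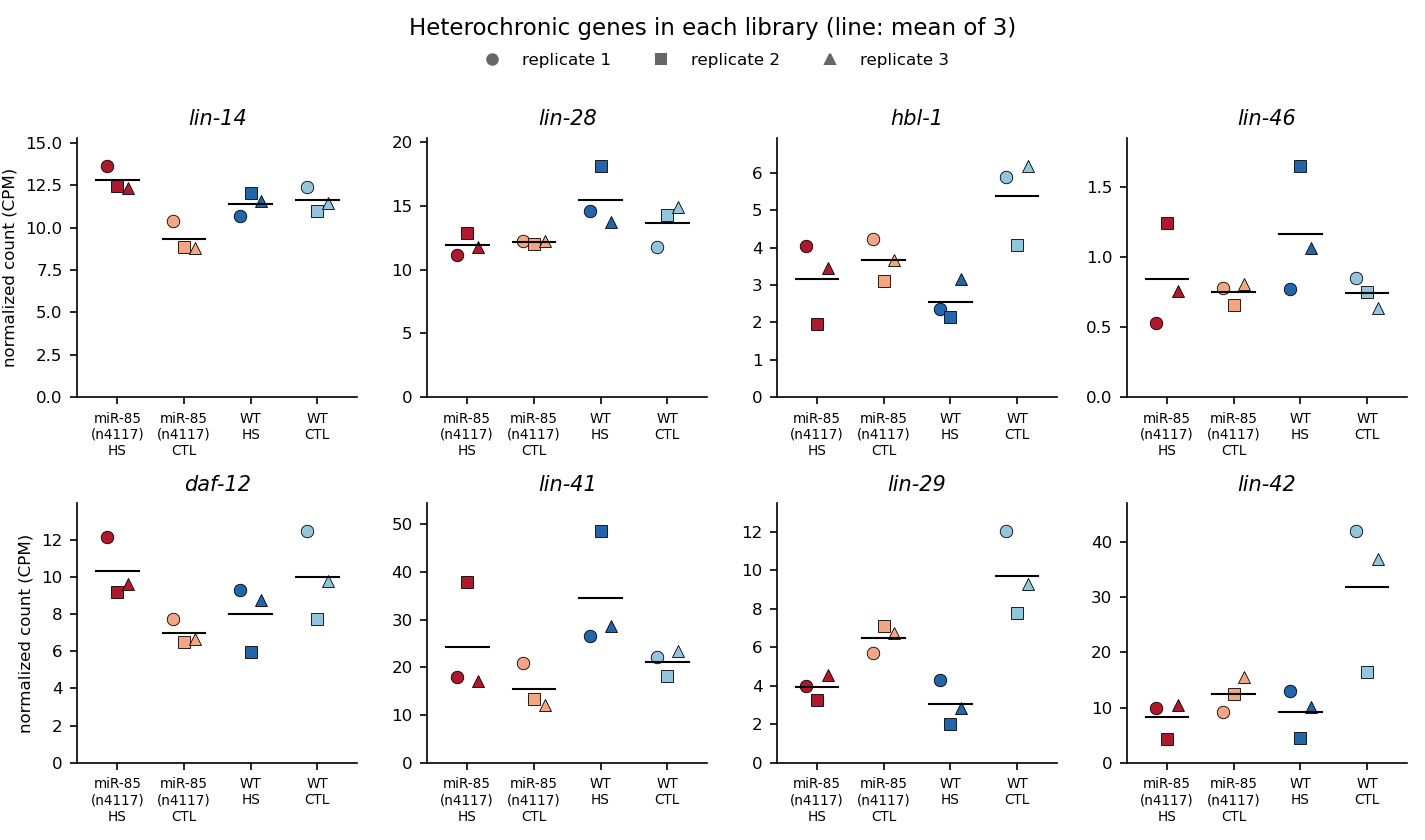
Normalized counts (CPM, from 0 on each vertical axis) of the 8 heterochronic genes in the 12 libraries. Points are single libraries, their shape gives the replicate number, and lines are means of 3. *lin-42* and *lin-29* are highest in the WT CTL libraries, and *lin-41* and *lin-46* are highest in the HS libraries numbered 2.

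Levels of different genes were compared as CPM per kilobase of exon sequence. On this scale *lin-28* was the most abundant member in every group, at 8.22 ± 0.582 in *miR-85(n4117)* HS, 8.38 ± 0.0976 in *miR-85(n4117)* CTL, 10.7 ± 1.62 in WT HS and 9.42 ± 1.13 in WT CTL (SD, n = 3). *lin-46* and *hbl-1* were the lowest members. Mean levels of *lin-46* lay between 0.547 and 0.853 CPM per kilobase and those of *hbl-1* between 0.570 and 1.20. *lin-42* changed its place in this order most. In *miR-85(n4117)* HS it stood below *lin-41*, *lin-14* and *daf-12*, at 2.06 ± 0.874 (SD, n = 3), and in WT CTL just below *lin-28*, at 7.93 ± 3.37 (SD, n = 3). The libraries of *lin-42* overlapped those of *daf-12* in *miR-85(n4117)* HS and those of *lin-28* in WT CTL. Ordered by level, the groups ran from WT HS over WT CTL and *miR-85(n4117)* CTL to *miR-85(n4117)* HS for *lin-28*, from WT HS over *miR-85(n4117)* HS and WT CTL to *miR-85(n4117)* CTL for *lin-41*, and from *miR-85(n4117)* HS over WT CTL and WT HS to *miR-85(n4117)* CTL for *daf-12*. In these genes and in *lin-46* each group overlapped the next.

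*lin-14* (WBcel235, WBGene00003003, X:11465560-11485871, forward strand) encodes a DNA-binding protein that specifies the fates of the first larval stage. It had 13.7, 12.5 and 12.3 CPM in the *miR-85(n4117)* HS replicates 1, 2 and 3, against 10.4, 8.88 and 8.83 CPM in *miR-85(n4117)* CTL. All HS libraries of the mutant lay above all of its CTL libraries. The rise was 1.37-fold, a log2 fold change of 0.45 (± 0.124 SE, edgeR adjusted p = 0.0320), and *lin-14* was thus 1 of the 9.35% of genes tested that passed in this direction. In WT the libraries overlapped, with 10.7, 12.0 and 11.6 CPM in HS and 12.4, 11.02 and 11.4 CPM in CTL, and the log2 fold change was −0.023 (95% interval −0.30 to 0.25). Across the groups *lin-14* was lowest in *miR-85(n4117)* CTL, whose libraries lay below those of WT HS and WT CTL, which overlapped each other. The call in the mutant was lost without CTL replicate 2 (adjusted p = 0.130), CTL replicate 3 (0.133), HS replicate 1 (0.105) or HS replicate 2 (0.0590) in edgeR, without the filter on low counts (0.224), and when the mutant's 6 libraries were fitted alone (0.0824). Its log2 fold change stayed between 0.40 and 0.53 when each library was left out in turn. The exons of *lin-14* include those of 2 small nucleolar RNAs on the same strand, each with at most 17 counts in a library.

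*lin-28* (WBGene00003014, I:8407630-8410804, reverse strand) encodes an RNA-binding protein that blocks the maturation of let-7 and is, like *lin-14*, a target of lin-4. Its change upon HS did not pass in either strain. It had 11.2, 12.9 and 11.8 CPM in *miR-85(n4117)* HS and 12.2, 12.0 and 12.3 CPM in *miR-85(n4117)* CTL, with a log2 fold change of −0.028 (95% interval −0.34 to 0.29). In WT it had 14.7, 18.2 and 13.7 CPM in HS and 11.8, 14.3 and 14.9 CPM in CTL, with a log2 fold change of 0.18 (95% interval −0.13 to 0.50). The HS and CTL libraries overlapped in both strains, and both intervals exclude a 2-fold change in either direction. Its annotated exons share 16 bases with those of *F02E9.1* on the opposite strand, and the counting used the strand.

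*hbl-1* (WBGene00001824, X:5822142-5827755, forward strand), a transcription factor related to fly Hunchback that acts from the second to the third larval stage, fell in WT. In *miR-85(n4117)* the libraries overlapped, at 4.04, 1.95 and 3.46 CPM in HS and 4.23, 3.11 and 3.68 CPM in CTL, and the log2 fold change was −0.22 (95% interval −0.85 to 0.40). The WT HS libraries held 2.35, 2.14 and 3.16 CPM and the WT CTL libraries 5.90, 4.06 and 6.20 CPM, without overlap. The fall in WT was 2.10-fold (log2 fold change −1.07 ± 0.290 SE, edgeR adjusted p = 0.0239). Without the HS libraries numbered 2 the log2 fold change was 0.028 in the mutant and −0.95 in WT. In edgeR the call in WT was lost without WT CTL replicate 1 (adjusted p = 0.0733), CTL replicate 3 (0.0612), HS replicate 1 (0.0579) or HS replicate 2 (0.0800), with values between −1.26 and −0.96. WT CTL stood highest and WT HS lowest among the 4 groups, and each group overlapped the next in that order.

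*lin-46* (WBGene00003031, V:12968855-12970730, forward strand), a gephyrin-like protein that acts against HBL-1, had the fewest counts of the members, 8 to 41 in a library. It had 0.529, 1.24 and 0.756 CPM in *miR-85(n4117)* HS and 0.783, 0.658 and 0.812 CPM in *miR-85(n4117)* CTL. In WT it had 0.771, 1.66 and 1.07 CPM in HS and 0.852, 0.751 and 0.636 CPM in CTL. The highest value in each strain was that of HS replicate 2, and the groups overlapped. The log2 fold change was 0.17 (95% interval −0.63 to 0.96) in the mutant and 0.62 (95% interval −0.19 to 1.43) in WT. Without the HS libraries numbered 2 these values were −0.23 and 0.28.

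*daf-12* (WBGene00000908, X:10635908-10666875, forward strand) encodes the nuclear receptor for dafachronic acid, a steroid hormone through which growth conditions reach the pathway. The mutant HS libraries, at 12.2, 9.16 and 9.59 CPM, lay above all of its CTL libraries, at 7.75, 6.49 and 6.63 CPM. The log2 fold change was 0.57 (SE 0.221), which did not pass the test (edgeR adjusted p = 0.110). In WT the libraries overlapped, with 9.29, 5.98 and 8.74 CPM in HS and 12.4, 7.71 and 9.78 CPM in CTL, and the log2 fold change was −0.32 (95% interval −0.80 to 0.17). Between libraries with the same replicate number, the log2 ratios of HS over CTL were 0.65, 0.50 and 0.53 in the mutant and −0.42, −0.37 and −0.16 in WT. *daf-12* was the only member with all ratios above 0 in one strain and all below 0 in the other. Same-numbered libraries deviated together in WT and not in the mutant, where the number is only a label. The mutant ratios are above 0 for any pairing, while those of WT depend on the pairing because the libraries overlap. The share of all genes with such ratios was not counted.

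*lin-41* (WBGene00003026, I:9334800-9342496, reverse strand) encodes an RNA-binding protein that holds back LIN-29 until let-7 represses it. In *miR-85(n4117)* the libraries overlapped, at 18.05, 37.8 and 17.2 CPM in HS and 21.0, 13.3 and 12.1 CPM in CTL, with a log2 fold change of 0.65 (SE 0.346). All WT HS libraries, at 26.5, 48.5 and 28.6 CPM, lay above all WT CTL libraries, at 22.1, 18.1 and 23.4 CPM. That difference did not pass the test (log2 fold change 0.71 ± 0.347 SE, edgeR adjusted p = 0.164). HS replicate 2 was the highest library of both strains. Without the HS libraries numbered 2, the log2 fold change was 0.19 in the mutant and 0.38 in WT.

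*lin-29* (WBGene00003015, II:11917642-11935343, reverse strand), the transcription factor that ends the pathway, had the lowest adjusted p of the members, for its fall in WT. In *miR-85(n4117)* the HS libraries, at 4.00, 3.27 and 4.58 CPM, lay below the CTL libraries, at 5.67, 7.09 and 6.74 CPM. There the log2 fold change of −0.72 (SE 0.270) did not pass in edgeR (adjusted p = 0.0986), except with the sequencing lane as a covariate (adjusted p = 0.0346). In WT the HS libraries held 4.32, 2.02 and 2.84 CPM and the CTL libraries 12.0, 7.79 and 9.30 CPM. Every WT HS library lay below every WT CTL library. The fall was 3.17-fold (log2 fold change −1.66 ± 0.277 SE, edgeR adjusted p = 0.00217), and 2.17% of the genes tested had a lower value. It passed with each of the 6 WT libraries left out in turn, with log2 fold changes from −2.01 to −1.44. Without the HS libraries numbered 2 the log2 fold change was −0.60 in the mutant and −1.44 in WT, where it passed. WT CTL stood above *miR-85(n4117)* CTL without overlap, and this group above *miR-85(n4117)* HS without overlap, while the HS groups overlapped. The annotated exons share 2 bases with those of *hmg-12* on the opposite strand.

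*lin-42* (WBGene00018572, II:1233236-1252359, reverse strand) fell in WT by 3.43-fold. In *miR-85(n4117)*, HS libraries at 10.01, 4.23 and 10.5 CPM overlapped CTL libraries at 9.25, 12.4 and 15.6 CPM, with a log2 fold change of −0.59 (95% interval −1.62 to 0.44). The WT HS libraries held 13.1, 4.56 and 10.1 CPM and the WT CTL libraries 42.0, 16.44 and 36.96 CPM, without overlap. In WT the log2 fold change was −1.78 (± 0.476 SE, edgeR adjusted p = 0.0234), and 1.67% of the genes tested had a lower value. HS replicate 2 was the lowest library of each strain. Without the HS libraries numbered 2 the log2 fold change was −0.27 in the mutant and −1.45 in WT, where it still passed in edgeR (adjusted p = 0.0275). With single libraries left out, the WT call was lost in edgeR without CTL replicate 1 (adjusted p = 0.0779), CTL replicate 3 (0.0561), HS replicate 2 (0.0683) or HS replicate 3 (0.0563), with values between −2.12 and −1.46, and it was also lost without the filter on low counts (0.0706). WT CTL stood above the other groups without overlap, and those overlapped each other.

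The question whether loss of miR-85 changed the response of these genes to HS was put to the interaction of strain and HS in the fit of all 12 libraries. For *daf-12* the response of the mutant exceeded that of WT by 0.88 on the log2 scale (SE 0.313), for *lin-14* by 0.48 (SE 0.176), for *lin-29* by 0.94 (SE 0.383), for *hbl-1* by 0.84 (SE 0.405) and for *lin-42* by 1.19 (SE 0.659). For *lin-28*, *lin-41* and *lin-46* the difference was below 0, from −0.45 for *lin-46* to −0.052 for *lin-41*. With edgeR 0 of 8 members passed after adjustment (each adjusted p = 1), as did 0.00% of all genes, and DESeq2 also passed 0. Before adjustment edgeR gave a p under 0.05 for 3 members (*daf-12*, *lin-14* and *lin-29*), where 2.27% of all genes had one. The difference between a passed test in WT and a missed one in the mutant is therefore not itself shown for *lin-29*, *lin-42* or *hbl-1*, and the 95% intervals of their interactions reach from 0.10 to 1.79, from −0.27 to 2.65 and from −0.048 to 1.74.

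**Figure D3:**
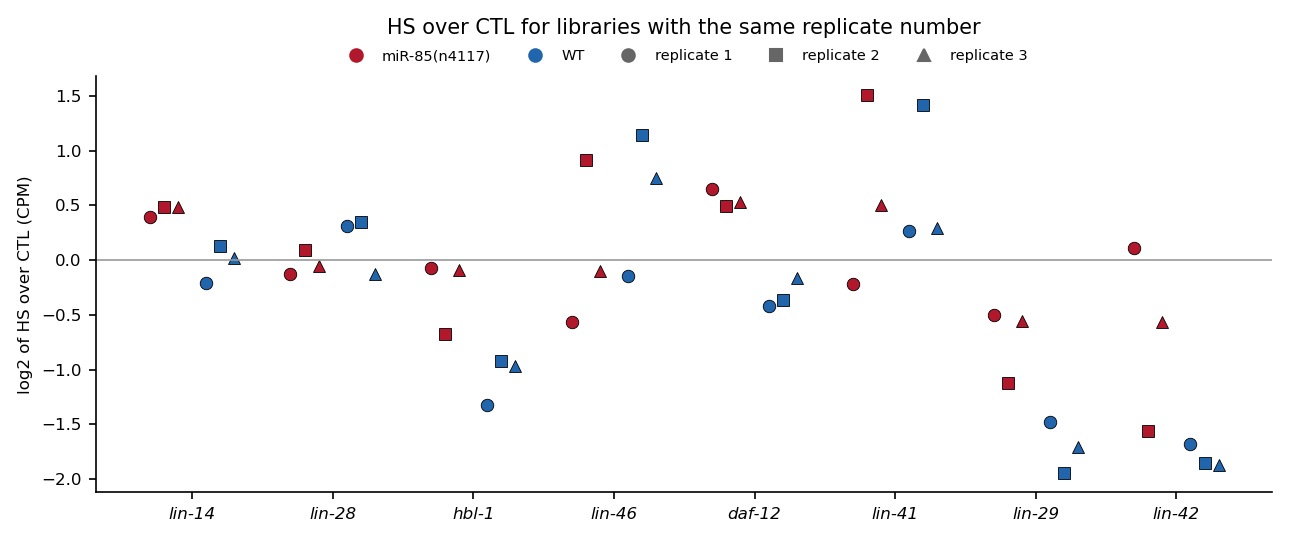
Log2 ratio of HS over CTL CPM (vertical axis) for libraries with the same strain and replicate number, *miR-85(n4117)* in red left of WT in blue for each gene. All 3 *daf-12* ratios are above 0 in the mutant and below 0 in WT, and replicate 2 gives the highest *lin-41* ratio and the lowest *lin-29* ratio of both strains.

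At 20°C, without heat, every member had a lower estimate in *miR-85(n4117)* than in WT, and none passed the test. The largest difference was that of *lin-42*, whose values are given above for each library. Its mean was 12.4 ± 3.16 CPM in *miR-85(n4117)* CTL and 31.8 ± 13.5 CPM in WT CTL (SD, n = 3 each), a log2 fold change of −1.35 (± 0.364 SE, edgeR adjusted p = 0.337), and DESeq2 gave an adjusted p of 0.0217 for it. *lin-29* followed with −0.58 (SE 0.192), *hbl-1* with −0.54 (SE 0.213) and *daf-12* with −0.52 (SE 0.195). *lin-41*, *lin-14* and *lin-28* had −0.45, −0.31 and −0.17, and *lin-46* had −0.012. The mutant libraries lay below all WT libraries for 3 members, *lin-14*, *lin-29* and *lin-42*, as they did for 8.23% of genes, and the exact permutation test gave each of the 3 a two-sided p of 0.1, the smallest that 3 libraries against 3 allow. EdgeR passed 0 of 8 members, against 0.0521% of the 15349 genes tested, and DESeq2 passed 1 (*lin-42*), while 5 members had an unadjusted p under 0.05, as 9.68% of genes did. The median over the members was −0.49, against 0.012 over all genes tested. The molting cycle and yolk genes described further on had medians of −0.48 and −0.78 in this comparison. Of the 10 molting cycle genes 4 were above and 6 below 0, and all 6 yolk genes were below 0. Against WT replicate 1, the only WT library from the same lane, the mutant had log2 fold changes of −1.77 for *lin-42*, −0.90 for *lin-29* and −0.85 for *daf-12*, given as values alone because the WT arm was a single library. In the same fit the estimate of *lin-28* changed sign and lay slightly above 0. WT CTL replicate 1 had the highest *lin-42* and a molting cycle sum of 1967 CPM, against 696 and 748 CPM in the other WT CTL libraries, and without it the log2 fold change of *lin-42* was −1.09. This comparison and that of HS in WT share the WT CTL libraries, and that of HS in the mutant shares the *miR-85(n4117)* CTL libraries, so their values are not independent.

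After HS the estimates for the mutant over WT lay on both sides of 0. They were 0.36 for *daf-12*, 0.37 for *lin-29*, 0.30 for *hbl-1* and 0.16 for *lin-14* on the log2 scale. *lin-42* had −0.16, *lin-28* −0.38, *lin-46* −0.46 and *lin-41* −0.51. For *lin-14* the mutant libraries lay above all WT libraries, as for 3.42% of genes, and for *lin-28* they lay below, as for 3.58% of genes (exact permutation test, two-sided p = 0.1 for both). EdgeR passed 0 of 8 members (0.0190% of 15803 genes passed), no member had an unadjusted p under 0.05 (2.38% of genes had one), and DESeq2 passed 0. Same-numbered libraries of the strains deviated together after HS. *lin-41*, *lin-28* and *lin-46* were lower in the mutant in all 3 pairs, and *daf-12* and *lin-14* were higher in all 3. For *lin-28* and *lin-14* this follows from the groups without overlap. The share of all genes with such agreement was not counted. With the replicate number as a block, *lin-41* had a log2 fold change of −0.55 (95% interval −0.90 to −0.20), against an interval of −1.44 to 0.43 without it, and did not pass in edgeR (adjusted p = 0.504). It was the 1 member with an unadjusted p under 0.05 in this fit, as 7.63% of genes had one. The blocked intervals ran over −0.75 to 0.011 for *lin-28*, −0.080 to 0.83 for *daf-12*, −1.20 to 0.24 for *lin-46* and −0.61 to 0.31 for *lin-42*. Within lane 3 the estimates of *lin-29* and *lin-46* changed sign, to −0.14 and 0.11.

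**Figure D4:**
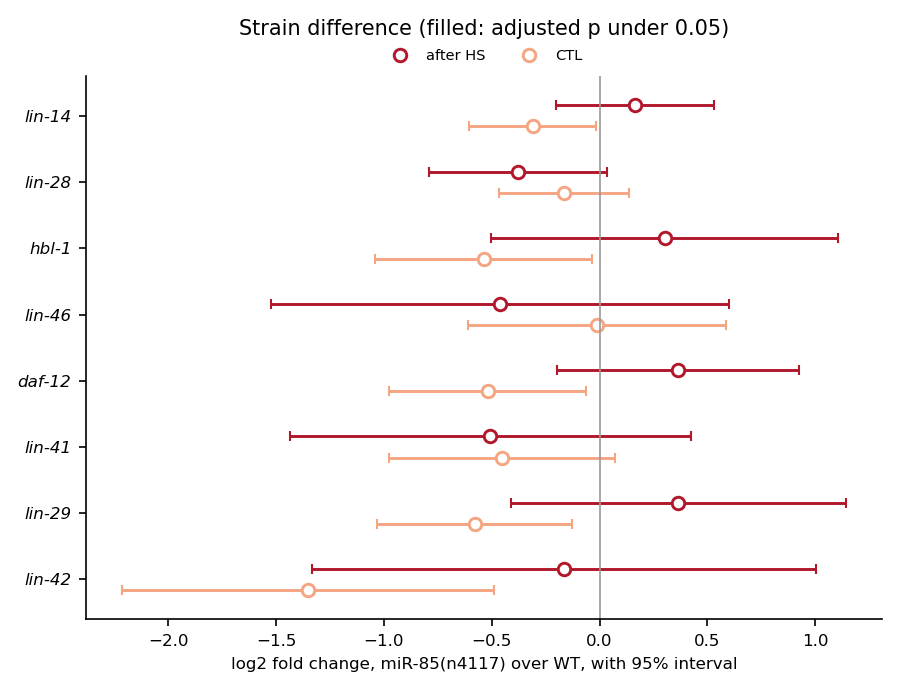
Log2 fold change of *miR-85(n4117)* over WT (horizontal axis) for each heterochronic gene after HS (red) and in CTL animals (orange), with 95% intervals from edgeR. No point is filled because no adjusted p is under 0.05, and the 8 CTL points lie below 0.

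The microRNA genes of the pathway were at the edge of detection, in libraries of total RNA, a kind of library in which counts on such genes can come from longer precursor RNA. *let-7* had 0 counts in all 12 libraries, *mir-84* at most 1 and *lin-4* at most 3. *mir-48* had 8, 5 and 8 counts in *miR-85(n4117)* HS, 6, 5 and 1 in *miR-85(n4117)* CTL, 6, 3 and 2 in WT HS and 2, 2 and 0 in WT CTL, and relative to library size its HS libraries lay above its CTL libraries in both strains. Only *mir-241* had enough counts for a test. It had 2, 6 and 4 counts in *miR-85(n4117)* HS, 21, 9 and 13 in *miR-85(n4117)* CTL, 2, 3 and 4 in WT HS and 22, 13 and 12 in WT CTL. Relative to library size, the HS libraries lay below the CTL libraries in both strains. Its log2 fold change upon HS was −1.23 in the mutant (edgeR adjusted p = 0.115), and it fell in WT (log2 fold change −2.47 ± 0.509 SE, edgeR adjusted p = 0.00664).

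Of 18 other regulators tied to developmental timing, 0 fell and 1 rose in *miR-85(n4117)* upon HS, where 5.88% of all genes tested fell and 9.35% rose. In WT 6 of these regulators fell and 0 rose, where 9.29% of genes fell and 12.9% rose. Apart from *emb-8*, *alg-2*, *rnt-1* and *rab-3*, which passed in both strains, the genes named from these and the following lists were chosen after their values were seen. The 6 that fell in WT were *myrf-1* and *myrf-2*, membrane-bound transcription factors, *dre-1*, an F-box protein, *mab-10*, the cofactor of LIN-29, *puf-9*, an RNA-binding protein of the Pumilio family, and *kin-20*, a casein kinase related to fly Doubletime, with log2 fold changes from −2.04 for *myrf-1* to −0.85 for *kin-20* and adjusted p-values of 0.00258 to 0.0461 from edgeR. In the mutant the same 6 genes had values from −1.20 for *dre-1* to 0.32 for *mab-10*, and none passed in edgeR. *mab-10* had 3.93, 1.74 and 3.86 CPM in *miR-85(n4117)* HS and 2.62, 2.51 and 2.49 CPM in *miR-85(n4117)* CTL, against 3.39, 1.53 and 2.81 CPM in WT HS and 8.12, 3.62 and 6.20 CPM in WT CTL. The 1 gene that rose in the mutant was *nhl-2*, a relative of LIN-41 that aids microRNA function (log2 fold change 0.62, edgeR adjusted p = 0.0382), and in WT it had 0.48 (edgeR adjusted p = 0.0735). In edgeR 2 of the 18 had an unadjusted p under 0.05 below 0 in the mutant and 2 above 0 in WT. DESeq2 passed 1 gene lower and 1 higher in the mutant, and 6 lower and 0 higher in WT. The median over the 18 was −0.043 in the mutant and −0.49 in WT, against 0.051 and 0.043 over all genes tested.

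Genes of the dafachronic acid pathway, which makes or relays the DAF-12 ligand, had 1 of 8 tested genes lower in each strain. Over all genes tested 5.88% fell in the mutant and 9.29% in WT. In both strains the gene was *emb-8*, an NADPH-cytochrome P450 reductase, which fell by 1.04 in the mutant and by 0.91 in WT on the log2 scale (edgeR adjusted p = 0.00182 and 0.00347). *daf-9*, the cytochrome P450 that makes dafachronic acid, had log2 fold changes of −0.26 in the mutant and −0.71 in WT and passed in neither. The medians of the 8 were −0.091 and −0.58, against 0.051 and 0.043 over all genes tested.

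Among 8 genes of the microRNA machinery none rose upon HS. In *miR-85(n4117)* 1 fell, as did 5.88% of all genes tested, and in WT 3 fell, as did 9.29%. The Argonaute gene *alg-2* fell in both, at 7.70, 9.02 and 5.69 CPM in *miR-85(n4117)* HS against 20.2, 15.8 and 15.8 CPM in *miR-85(n4117)* CTL, and at 7.44, 10.7 and 8.03 CPM in WT HS against 24.5, 19.9 and 20.3 CPM in WT CTL. Its log2 fold changes were −1.21 and −1.31 (edgeR adjusted p = 0.00250 and 0.00145). The other Argonaute of the pathway, *alg-1*, had 16.50, 11.1 and 15.2 CPM in *miR-85(n4117)* HS and 25.9, 24.04 and 20.9 CPM in *miR-85(n4117)* CTL, against 23.2, 10.1 and 12.3 CPM in WT HS and 61.0, 36.6 and 44.7 CPM in WT CTL. Its log2 fold change of −0.73 did not pass in the mutant (edgeR adjusted p = 0.129), and it fell in WT (−1.64, edgeR adjusted p = 0.00398). At 20°C *alg-1* was at −1.0 in the mutant relative to WT, which did not pass in edgeR (adjusted p = 0.258), and the 3 mutant libraries lay below the 3 WT libraries. The remaining gene, *ain-1*, a partner of the Argonautes, fell in WT by 0.54 on the log2 scale (edgeR adjusted p = 0.0142). In neither strain comparison did a gene of any list pass in edgeR. After HS, 1 of the 18 other regulators and no gene of the other lists had an unadjusted p under 0.05, and DESeq2 passed none. In CTL animals, 7 of the 18 other regulators, 4 of the 8 genes of the dafachronic acid pathway and 2 of the 8 machinery genes had an unadjusted p under 0.05, all lower in the mutant. Over all genes tested 9.68% had one in edgeR. In the remaining lists, 1 molting cycle gene and 3 heat shock genes were higher at this level. Lower were 1 molting cycle gene, 1 seam cell gene, 2 intestine markers and 2 germline markers. DESeq2 passed *mab-10*, *nhr-25*, *alg-1* and the germline marker *cgh-1* as lower and 3 heat shock genes as higher in the mutant there.

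Because *lin-42* cycles with the molt and *lin-29* drives the adult cuticle, markers of both were measured in the same libraries. The 10 molting cycle genes summed to 782, 128 and 786 CPM in the *miR-85(n4117)* HS replicates 1, 2 and 3, 704, 830.0 and 1168 CPM in *miR-85(n4117)* CTL, 464, 162 and 427 CPM in WT HS and 1967, 696 and 748 CPM in WT CTL. The median log2 fold change upon HS was −0.50 in the mutant, where 0 of 10 passed in edgeR, by DESeq2 or at an unadjusted p under 0.05, and −1.66 in WT, where *nas-37*, a protease of molting, and *ptr-4* fell (−1.90 and −2.24, edgeR adjusted p = 0.0314 and 0.0421). WT HS lay below WT CTL in every library for the molting cycle sum, as for *lin-42*. From lowest to highest, *nas-37* had 30.5, 31.2 and 105 CPM in WT CTL and 10.7, 15.5 and 18.8 CPM in WT HS. Among 9 larval-to-adult outputs that were tested, 0 passed in the mutant and 1 in WT, the cuticle collagen gene *bli-1*, which fell in WT (log2 fold change −2.08, edgeR adjusted p = 0.0420). In the mutant 1 of the 9 had an unadjusted p under 0.05 and DESeq2 passed 1, both above 0. In WT DESeq2 passed 1 output higher and 1 lower. The adult collagen gene *col-19* had 410.0, 2007 and 214 CPM in *miR-85(n4117)* HS and 277, 60.8 and 24.7 CPM in *miR-85(n4117)* CTL, against 805, 3331 and 1246 CPM in WT HS and 169, 234 and 285 CPM in WT CTL. All WT HS libraries lay above all WT CTL libraries for *col-19*, and those of the mutant overlapped. It did not pass in edgeR in either strain (adjusted p = 0.0849 and 0.0603). In WT *col-19* was the 1 output of the 9 above 0 in edgeR (log2 fold change 2.97), where DESeq2 passed 1 output higher. The 6 yolk genes, made in the adult intestine, summed to 752, 4152 and 150.1 CPM in *miR-85(n4117)* HS, 945, 190.4 and 86.8 CPM in *miR-85(n4117)* CTL, 1935, 5837 and 2500.0 CPM in WT HS and 822, 731 and 786 CPM in WT CTL. WT HS lay above WT CTL in every library for the yolk sum, and the mutant's libraries overlapped. Their median log2 fold change upon HS was 1.87 in the mutant and 1.78 in WT, with all 6 above 0 in both. In edgeR and DESeq2 0 of 6 passed, with none at an unadjusted p under 0.05. Yolk and *col-19* were higher in *miR-85(n4117)* CTL replicate 1 than in the other mutant CTL libraries, and that library also had the highest *lin-41* and the lowest *lin-42* of its group. A response of these genes to heat and a different stage or molt phase of the heated animals cannot be told apart in this design.

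**Figure D5:**
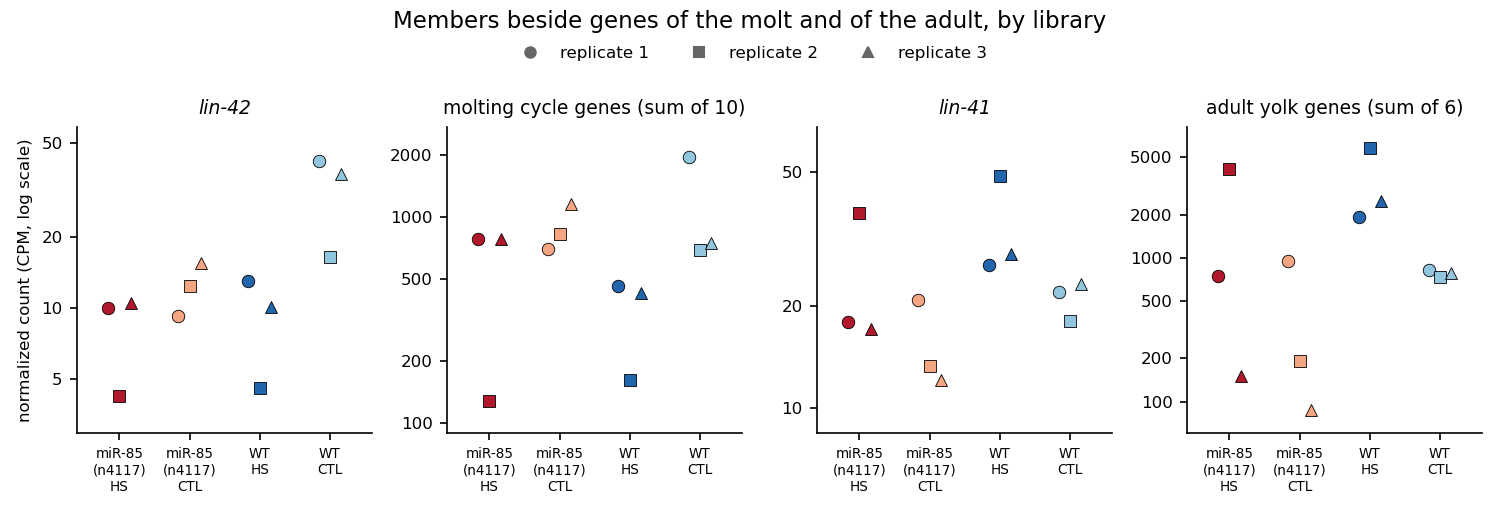
CPM on log axes of *lin-42* and the summed molting cycle genes, and of *lin-41* and the summed adult yolk genes, in the 12 libraries, with the replicate number as the shape. The HS libraries numbered 2 are the lowest for *lin-42* and the molting sum and the highest for *lin-41* and the yolk sum.

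Of 8 genes of the seam cells, the skin stem cells on which the pathway acts, 5 had enough counts. *rnt-1*, a Runx factor that promotes their divisions, rose in both strains, with 2.30, 2.56 and 2.03 CPM in *miR-85(n4117)* HS against 0.423, 0.568 and 0.352 CPM in *miR-85(n4117)* CTL and 2.55, 1.13 and 1.49 CPM in WT HS against 0.459, 0.751 and 0.556 CPM in WT CTL. The HS and CTL libraries did not overlap in either strain. Its log2 fold changes were 2.35 and 1.53 (edgeR adjusted p = 0.00106 and 0.0110). No other seam cell gene passed in edgeR, and 3 of the 5 were below 0 in each strain. Their medians were −0.030 in the mutant and −0.070 in WT. Below 0, an unadjusted p under 0.05 was found for 2 in the mutant and 1 in WT. Markers of other tissues showed that all were present in these whole worms. Upon HS, 3 of 5 neuron markers fell in the mutant and 1 in WT, with *rab-3*, a synaptic vesicle protein, falling in both (−0.91 and −0.77, edgeR adjusted p = 0.00246 and 0.00554). Over all genes tested 5.88% fell and 9.35% rose in the mutant, and 9.29% fell and 12.9% rose in WT. Of the intestine markers 0 of 5 passed in the mutant and 2 fell in WT, of the body muscle markers 1 of 5 rose in the mutant and 0 passed in WT, and of the germline markers 0 of 5 passed in either strain in edgeR. In these 4 cases of 0, unadjusted p-values under 0.05 were found for 1, 2, 1 and 1 genes, and DESeq2 passed 0, 1, 0 and 1. The summed levels by group ranged over 72.7 to 75.3, 78.5 to 82.7, 69.7 to 75.1 and 71.4 to 78.5 CPM for neurons, in the order *miR-85(n4117)* HS, *miR-85(n4117)* CTL, WT HS and WT CTL. For the intestine the same ranges were 1459 to 2806, 2694 to 3367, 1783 to 3217 and 3428 to 8078 CPM. Their part in the results for the heterochronic genes was not tested.

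For each member that passed upon HS, the other protein-coding genes with the most similar profile were sought among 13033 genes, as the smallest root mean square difference of centred log2 CPM over all 12 libraries. For *lin-42* these were *myrf-1* (0.329) and *alg-1* (0.396), against a spread of 0.941 in *lin-42* itself. *myrf-1* had 10.9, 3.12 and 13.4 CPM in *miR-85(n4117)* HS and 13.7, 19.5 and 20.9 CPM in *miR-85(n4117)* CTL, against 10.7, 4.52 and 8.82 CPM in WT HS and 46.0, 19.9 and 33.1 CPM in WT CTL. *lin-29* was nearest to *C14H10.3* and *F35H10.10* (both 0.181, own spread 0.707), *hbl-1* to *T24B8.3* (0.180) and *K09F5.6* (0.205, own spread 0.491), and *lin-14* to *abt-2* (0.0938) and *C02B8.6* (0.106, own spread 0.183). The libraries share their depth and lane, and a likeness of profiles across them is a description without a test.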

How the data were processed

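RNA of whole worms was depleted of ribosomal RNA (Ribo-Zero Gold), made into stranded libraries and sequenced as single reads. The authors aligned reads to WBcel235 with STAR and assigned them to genes with featureCounts, version 1.6.5 per the file headers, with strand setting 2 and annotation release 100, and deposited raw counts per gene for each of 12 libraries (the study's methods name another Ensembl release). Ribosomal RNA left in a library lowers the depth of its other genes, and protein-coding genes held 9505142 to 29652439 counts per library.

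Names, positions and exon lengths came from WBcel235 annotation release 115, which held 46817 of 46904 identifiers. Counts were filtered (filterByExpr), TMM-normalized and fitted with edgeR 4.0.16 (quasi-likelihood, robust) in R 4.3.3 with limma 3.58.1, with Benjamini-Hochberg adjustment over all genes tested. Strain differences used the 6 libraries of one temperature, and responses to HS and their interaction used all 12. SEs and 95% intervals were derived from the quasi-likelihood F statistics. The 8 members were named throughout, and from 13 other gene lists the 3 largest rises and falls passing in both strains, together with the 2 nearest profiles of each member that passed upon HS (prior count 2, mean of at least 1 CPM). The members and lists were chosen with earlier results of these data known. Replicate numbers from the labels were taken to pair the libraries where every correlation of their deviations from group means was over 0.1. This held for strain after HS (r = 0.488, 0.559 and 0.342 over 16585 genes) and for HS in WT (0.315, 0.121 and 0.357). After HS, mutant replicate 1 with WT replicate 3 (0.215) and mutant replicate 3 with WT replicate 1 (0.145) were also over 0.1. In the mutant, so were HS replicate 1 with CTL replicate 2 (0.191), 2 with 1 (0.513) and 3 with 3 (0.407). The rule thus does not single out the same-numbered pairs in these comparisons. In WT the number goes with the lane at both temperatures, so pairing and lane cannot be told apart there. Alternatives were RLE normalization, other filters, DESeq2 1.42.0, the lane, a replicate block, other library choices and leaving out each library. Fits were tested on simulated data.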

Additional observations from a re-analysis of the deposited data

Results flagged for a closer look

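*daf-12* was singled out because its HS over CTL ratio was above 0 in every replicate number of *miR-85(n4117)* (0.65, 0.50 and 0.53) and below 0 in every replicate number of WT (−0.42, −0.37 and −0.16, log2). The share of all genes that meet this rule was not counted. The difference between the responses was 0.88 on the log2 scale (SE 0.313, edgeR's adjusted p = 1), and 0.79 without the HS libraries numbered 2.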

How the results depend on the processing

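The call on *lin-29* in WT held in every alternative run. Those on *hbl-1*, *lin-42* and *lin-14* were each lost when any of several single libraries was left out, as given with their values. Their estimates kept their sign in those runs. Replicate numbers gave a block in every comparison. Where they were taken to pair the libraries, the block changed no call on a member. For strain in CTL animals (r = 0.096, −0.191 and 0.043) and HS in the mutant (−0.203, −0.34 and 0.407) they were not taken to pair them. With the block there, 2 genes passed in CTL animals, and in the mutant edgeR gave *lin-14* an adjusted p of 0.0760 and *daf-12* one of 0.0469. Members passing HS in the mutant, 1, became 0 without a filter or with the mutant's libraries alone and 2 with the lane as a covariate, and DESeq2 passed 1 member in CTL animals, against 0 in edgeR. Leaving out libraries gave 0 to 1 member in the mutant and 1 to 3 in WT. Genes passing HS in the mutant, 2527, became 1373 with at least 10 counts in every library and 3852 by DESeq2 (1495 to 2434 leaving out a library), and in WT 3684 became 2426 with WT libraries alone (2154 to 3774). Strain after HS, with 3 genes, had 8 without a filter, 0 at 10 counts, 6 in the fit of all libraries, 0 with the lane, 0 within lane 3 and 13 by DESeq2 (0 to 1 leaving out a library). In CTL animals, with 8 genes, these numbers were 123, 0, 14, 2, 0 and 248 (1 to 11). For the interaction DESeq2 passed 1 gene against 0 (0 to 4).

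Of the estimates that changed sign, none had passed. In CTL animals *lin-28* became 0.052 with the lane and 0.033 within lane 3, and *lin-46* 0.0053 without a filter (−0.10 to 0.087 leaving out a library). After HS, with the lane and within lane 3, *lin-46* became 0.13 and 0.11 and *lin-29* −0.13 and −0.14, and *lin-42* ran from −0.49 to 0.18 leaving out a library. For HS in WT *lin-14* became 0.00048 with protein-coding genes alone (−0.063 to 0.025 leaving out a library). For HS in the mutant, leaving out a library gave −0.085 to 0.016 for *lin-28*, −0.45 to 0.027 for *hbl-1* and −0.23 to 0.41 for *lin-46*, and leaving out the HS libraries numbered 2, chosen after seeing the data, gave 0.028 for *hbl-1* and −0.23 for *lin-46*. The interaction of *lin-41* ran from −0.52 to 0.27. The cause was not tested. With at least 10 counts in every library, *lin-46* was fitted only for strain after HS. The data are limited to whole animals, 1 mutant allele and 3 libraries per group, and only WT replicate 1 shares the mutant's lane.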
